A study of Mus musculus with 24 samples.

Results

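The AP-1 transcription factors and their relatives were followed in mouse heart muscle lacking executioner caspases. The genes were the Fos family (Fos, Fosb, Fosl1 and Fosl2), the Jun family (Jun, Junb and Jund), the repressor Jdp2, and the related factors Atf3 and Batf. They were found as array rows whose annotation names only that gene, and the brightest row over all arrays would have been taken for a gene with several. Of the 10 listed genes, 9 had exactly 1 such row, so brightness chose nothing, and these 9 are among 18819 genes measured in the series. Fosl1 lay only on 2 rows shared with Ccdc85b, and no value is given for it. The list was drawn up with the higher Jdp2 signal of P30 knockout hearts already known, so that difference is described below without a test. The members were thus chosen by a measured value of these arrays, the Jdp2 signal at P30, and by family for the rest.

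Ventricle tissue came from mice of a C57BL/6J background in 4 groups of 6 hearts. These were wild type (WT) and knockout (KO) newborns, taken at postnatal days 1 to 2, and WT and KO mice at postnatal day 30 (P30). No treatment was given. KO mice carried a double deletion of executioner caspases, of which 1 was lost in the whole animal and the other, floxed, was removed by a Cre recombinase under Nkx2.5 control, which acts from the first commitment of cells to the heart. Ventricle cells outside this lineage would keep the floxed gene, and a Western blot in the paper found some of its protein remaining in the newborn KO heart. The labels do not say whether WT mice carried Cre. The Methods give both sexes for each group, while sex is not given per array.

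AP-1 is a pair of basic leucine zipper (bZIP) proteins that binds DNA together. Fos proteins must pair with a Jun protein, whereas Jun proteins can also pair with each other, and the usual site reads TGACTCA. Jdp2 pairs with Jun proteins at the same sites but recruits histone deacetylases and represses, Atf3 is a stress-induced factor that can repress or activate, and Batf, best known in lymphocytes, pairs with Jun but has no activation domain of its own. Several of these genes are immediate early genes, transcribed within minutes of growth signals, stretch or tissue injury, and their mRNAs are short-lived. In the heart, Fos and Jun are classic early genes of mechanical load.

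The stretches before the start sites of Fos, Jun and Atf3, and a site at Jdp2, are shown because they hold sequences through which such factors are known to act on early genes. The RefSeq promoter table of the GRCm38.p6 build held 11 windows of 300 bases for 9 of the 10 listed genes. The 250 bases upstream of the start are printed 5′ to 3′ on the gene's strand, and capitals mark the match. In Fos (chr12:85473640-85473889, plus strand) and Atf3 (chr1:191183334-191183583, minus strand) it is the core of the cAMP response element, TGACGT on either strand. In Jun (chr4:95052223-95052472, minus strand) it is TGACATCA, a variant AP-1 site known from this promoter. For Jdp2, 30 bases around a core match upstream of 1 of its 3 start sites are shown (chr12:85599290-85599319, plus strand).
Fos: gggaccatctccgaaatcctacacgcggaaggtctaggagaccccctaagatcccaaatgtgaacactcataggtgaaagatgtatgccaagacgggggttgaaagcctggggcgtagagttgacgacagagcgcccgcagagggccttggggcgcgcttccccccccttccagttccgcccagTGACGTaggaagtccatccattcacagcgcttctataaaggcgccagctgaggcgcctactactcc
Jun: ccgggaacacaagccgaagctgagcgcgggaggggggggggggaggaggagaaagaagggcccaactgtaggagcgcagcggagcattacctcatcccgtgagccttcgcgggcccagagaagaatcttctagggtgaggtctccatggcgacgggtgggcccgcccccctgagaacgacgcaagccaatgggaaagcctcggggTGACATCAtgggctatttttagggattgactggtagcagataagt
Atf3: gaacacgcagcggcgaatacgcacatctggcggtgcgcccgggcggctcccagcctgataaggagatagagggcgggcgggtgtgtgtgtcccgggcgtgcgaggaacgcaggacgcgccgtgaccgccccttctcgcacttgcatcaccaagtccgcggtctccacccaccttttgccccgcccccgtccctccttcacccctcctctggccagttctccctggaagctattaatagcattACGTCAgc
Jdp2: tccgtccccctcTGACGTgtggagctggca
Searched on both strands, TGACGT lay in 4 of the 11 windows (of Fos, Atf3, Jdp2 and Batf) and in 7.51% of all 32851 windows in the table. This core was chosen after the windows had been read. TGACATCA lay in 1 of the 11 windows, that of Jun, and in 3.62% of all windows. The canonical AP-1 site TGACTCA (5.20% of all windows), the full element TGACGTCA (1.79%, which contains the core) and the CArG box bound by Srf (1.63%) had 0 matches in the 11 windows. These are matches of letters in short windows and not measured binding.

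The values were log2 signals from whole-transcript Affymetrix arrays, and array medians lay between 4.24 and 4.50. Each array correlated with the others of its group at a mean r of 0.985 to 0.993, and 0 of 276 pairs were identical. Of the 10 heart muscle markers listed, Tnnt2, Myl2 and Actc1 had group means of 12.4 to 13.2, while Myh7 was at 6.99 in WT and 6.95 in KO hearts at P30. Of the 13 atrial markers listed, Nppa (12.3 in newborn WT, 12.4 in newborn KO) and Myl4 (12.2 and 12.3) were as bright. Others were far lower in newborn hearts, such as Sln (4.6 and 4.8) and Nr2f1 (4.7 and 4.6). The level of the bright genes alone therefore does not separate ventricle from atrium. The newborn arrays numbered 4 stood apart from their groups. The newborn WT array 4 had the highest signal of its 6 arrays for 7 of the 9 genes, and the newborn KO array 4 the lowest of its 6 for 4 genes, Fosl2, Jun, Jdp2 and Atf3. The newborn comparisons of the 9 genes are therefore also given without these 2 arrays. The labels name separate hearts as replicates without saying more of litters or days.

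**Figure D1:**
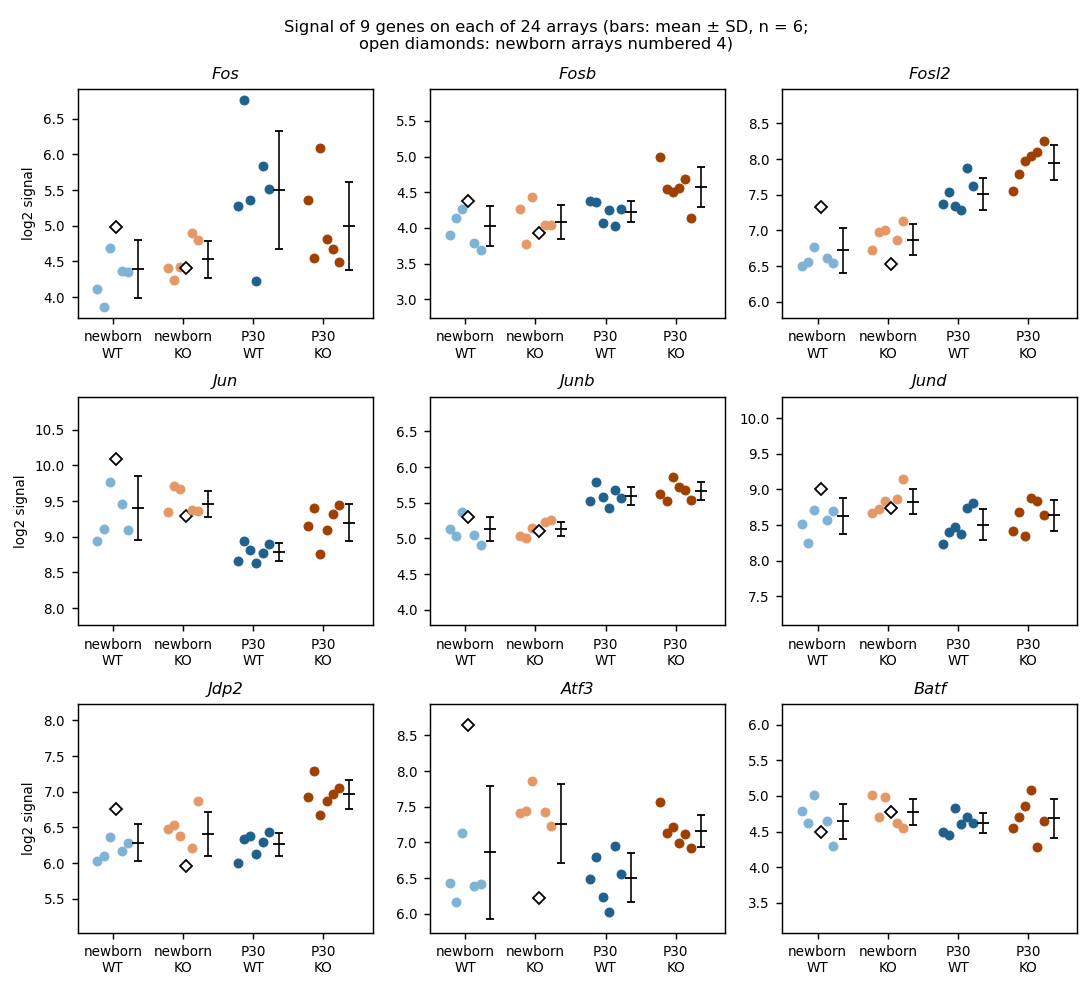
Log2 signal (vertical axes, all of the same length) of 9 genes on each of 24 arrays, by group (horizontal axes), with the mean ± SD of 6 arrays beside the points. Open diamonds are the newborn WT and KO arrays numbered 4. Jdp2 in P30 KO hearts lay above all P30 WT arrays, Junb and Fosl2 were higher at P30, and Atf3 of the newborn arrays 4 lay far from the other 5 of each group.

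Jdp2, the repressor, had its highest mean in P30 KO hearts. Its log2 signal ran from 6.04 to 6.75 with a median of 6.23 in newborn WT hearts, and from 5.95 to 6.88 with a median of 6.43 in newborn KO hearts. At P30 it ran from 6.00 to 6.44 (median 6.31) in WT and from 6.67 to 7.30 (median 6.94) in KO hearts. The P30 KO group did not overlap with P30 WT, as for 0.420% of all genes in this direction, but overlapped with both newborn groups. The means of Jdp2 in order were 6.96 ± 0.21 for P30 KO, 6.41 ± 0.31 for newborn KO, 6.28 ± 0.26 for newborn WT and 6.26 ± 0.16 for P30 WT (SD, n = 6 each). The 3 lower groups overlapped, and their means lay within 1 SD of each other.

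Atf3, which stress induces, was the gene that varied most among newborn hearts. It ran from 6.16 to 8.64 with a median of 6.42 in newborn WT, and the highest value was array 4, with the next at 7.13. In newborn KO hearts it ran from 6.22 to 7.85 with a median of 7.42, the lowest being array 4 and the next 7.23. The other 5 arrays of each group therefore did not overlap, with KO higher, as for 1.54% of all genes. Array 4 of each group lay in or beyond the range of the opposite genotype. At P30, Atf3 ran from 6.03 to 6.95 in WT (median 6.52) and from 6.92 to 7.56 in KO hearts (median 7.13), with only the highest WT array, at 6.95, reaching above the lowest KO array, at 6.92.

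Within the Fos family, Fosl2 and Fos had the largest differences with age in WT hearts. Fosl2, a Fos protein with slower induction, ran from 6.50 to 7.33 in newborn WT (median 6.59), 6.52 to 7.12 in newborn KO (6.92), 7.29 to 7.88 in P30 WT (7.45) and 7.55 to 8.25 in P30 KO hearts (8.00). All P30 KO arrays lay above all newborn KO arrays, as for 15.9% of all genes. Among WT hearts only the newborn array 4, at 7.33, reached into the P30 range of Fosl2. Fos, the founding early gene, ran from 3.85 to 4.98 in newborn WT (median 4.36), 4.24 to 4.90 in newborn KO (4.42), 4.22 to 6.77 in P30 WT (5.44) and 4.49 to 6.09 in P30 KO hearts (4.74). Its spread was widest at P30, with an SD of 0.83 in WT and 0.62 in KO hearts against 0.40 and 0.26 in newborns. Fosb, which the same signals induce, had group means between 4.03 and 4.57, and its highest group was P30 KO. Signals of Fosb, Batf and Fos were low, with means over 24 arrays at percentiles 38.0, 42.0 and 43.5 of all genes.

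Among the Jun proteins, Jun itself was lowest in P30 WT hearts. It ran from 8.94 to 10.1 in newborn WT (median 9.28), 9.29 to 9.71 in newborn KO (9.37), 8.63 to 8.94 in P30 WT (8.79) and 8.76 to 9.45 in P30 KO hearts (9.23). The highest P30 WT array was level with the lowest newborn WT array, at 8.94, and the P30 KO arrays overlapped with every other group. Junb, which can restrain Jun, ran from 4.91 to 5.37 in newborn WT (median 5.09), 5.01 to 5.25 in newborn KO (5.12), 5.43 to 5.79 in P30 WT (5.58) and 5.53 to 5.86 in P30 KO hearts (5.65). Its P30 arrays lay above its newborn arrays in both genotypes, which held for 11.5% of all genes in WT and 15.9% in KO hearts. Jund, the member that is expressed steadily in resting cells, had group means between 8.51 and 8.83, and Batf between 4.62 and 4.77, with all 4 groups overlapping for both.

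In newborn hearts, which still produce caspases in the wild type, the question was whether the deletion changed these genes at an age when heart muscle cells still divide. By limma over all 24 arrays, 0 of the 9 genes passed an adjusted p under 0.05, and 0% of all genes did. At an unadjusted p under 0.05 the count was also 0 of 9, while 9.07% of all genes passed. The log2 differences, KO minus WT, ran from -0.00 for Junb to 0.40 for Atf3 (SE 0.31, limma adjusted p = 0.697), with a median of 0.13 against -0.05 over all genes. Jund differed by 0.21 (SE 0.12) and Jdp2 by 0.12 (SE 0.13).

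The newborn arrays 4 stood apart in the AP-1 genes themselves, with the highest WT and the lowest KO signal of Atf3, so leaving them out widens the Atf3 difference and narrows its spread by construction. The values without them are therefore a description. Atf3 was then 0.97 higher on the log2 scale in KO hearts (SE 0.17, limma adjusted p = 0.00369). It was 1 gene of 9 past the threshold, where 2.56% of all genes passed and 0.622% passed as higher, and nothing is read from this count. The Atf3 values of the 5 KO arrays, 7.23 to 7.85, then lay above the 5 WT values, 6.16 to 7.13, as for 1.54% of all genes, from which nothing is read either. The other 8 genes had higher means in KO hearts without passing, among them Fosl2 at 0.34 (SE 0.12, adjusted p = 0.164), Jdp2 at 0.31 (SE 0.12, adjusted p = 0.213) and Jund at 0.30 (SE 0.12, adjusted p = 0.262) by limma. The mean of 21 other early response genes ran from 6.18 to 6.49 in the 5 WT arrays and from 6.43 to 6.58 in the 5 KO arrays. Its part in the Atf3 result without the newborn arrays 4 was not tested. On all 24 arrays the Atf3 difference was 0.40, and 0.07 with this mean as a covariate.

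**Figure D2:**
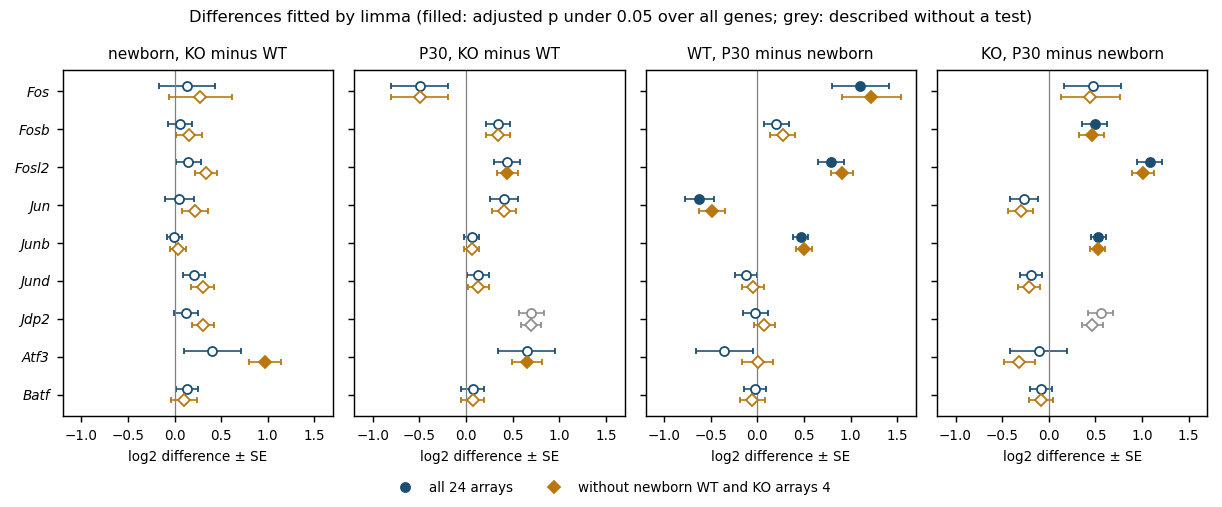
Log2 differences ± SE (horizontal axes) of the 9 genes (vertical axis) in 4 comparisons, fitted by limma on all 24 arrays (circles) and without the newborn WT and KO arrays 4 (diamonds), with filled symbols for an adjusted p under 0.05 and grey for Jdp2 in the comparisons that use the P30 KO arrays by which it was chosen. Jdp2 with age in WT hearts is drawn in colour, though it too is described without a test. Leaving out the 2 arrays moved Atf3 in newborn hearts from 0.40 to 0.97, while the P30 differences kept their values and their SE changed.

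At P30 the wild type heart has silenced its caspases and its muscle cells have stopped dividing. Of the 8 genes other than Jdp2, 7 had higher means in KO hearts at this age. The median difference over all genes was also positive, at 0.03, and nothing is read from this count. Jdp2 had the largest difference, 0.70 on the log2 scale (SE 0.13), which is 1.62-fold. It is given without a test, since Jdp2 was listed for it. Its groups did not overlap, as for 0.420% of all genes in this direction, and nothing is read from this. Over the 24 fits that each left out 1 array, the Jdp2 difference ran from 0.63 to 0.76, also as a description.

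Of the other 8 genes 0 passed by limma, where 1.02% of all genes passed, 0.670% as higher and 0.351% as lower. Differences were 0.65 for Atf3 (SE 0.31, limma adjusted p = 0.316), 0.44 for Fosl2 (SE 0.14, adjusted p = 0.117), 0.41 for Jun (SE 0.15, adjusted p = 0.194) and 0.35 for Fosb (SE 0.13, adjusted p = 0.205). These 4 had unadjusted p-values under 0.05, as did 15.0% of all genes. Fos went the other way, 0.50 lower in KO hearts (log2 difference -0.50, SE 0.30, limma adjusted p = 0.458). Jund, Batf and Junb differed by 0.13, 0.07 and 0.06. The median over the 9 genes was 0.35, and 0.24 without Jdp2, against 0.03 over all genes.

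Leaving out the newborn arrays 4 left the P30 means as they were and made the pooled spread smaller. Fosl2 (SE 0.11, limma adjusted p = 0.0491) and Atf3 (SE 0.16, adjusted p = 0.0484) then fell just under the threshold, 2 of the 8 genes other than Jdp2, where 1.08% of all genes passed and 0.670% passed as higher. Since the 2 arrays were left out for standing apart in these genes, nothing is read from this count. In a fit of only the 12 P30 arrays the adjusted p-values of limma were 0.227 for Fosl2 and 0.126 for Atf3.

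Mean signals of marker lists for other tissue were set beside these differences. The mean of 12 of the 13 atrial markers listed, without Nppa, ran from 6.14 to 8.67 in WT and from 6.57 to 9.22 in KO ventricles. KO minus WT was 1.29 on the log2 scale (exact two-sided permutation p = 0.0563, n = 6 each). The mean of 5 smooth muscle markers ran from 7.28 to 9.23 and from 7.65 to 9.89, a difference of 1.25 (exact permutation p = 0.0216). That of 10 heart muscle markers had a log2 difference of -0.10 in KO ventricles (exact permutation p = 0.00649). The median over these 10 genes was -0.04, and 3 of them were higher in KO ventricles. By limma Ttn (-0.44, adjusted p = 0.000948) and Ryr2 (-0.24, adjusted p = 0.0365) passed as lower, as did 0.351% of all genes. Each array is a piece of tissue, so more cells of a type and more RNA per cell cannot be told apart. With the atrial mean as a covariate in a fit of the 12 P30 arrays, the Jdp2 difference was 0.57, that of Atf3 0.48, that of Jun 0.24 and that of Fosl2 0.37. The mean of 6 epicardial markers ran from 4.39 to 7.34 in WT and from 5.80 to 8.20 in KO ventricles, a difference of 1.05 (exact permutation p = 0.139). That of 9 fibroblast markers ran from 7.85 to 9.33 and from 7.86 to 9.56, a difference of 0.55 (exact permutation p = 0.132). The permutation p-values are not adjusted, and after adjustment over the 28 list means compared by exact permutation 0 passed. The part of smooth muscle, epicardial and fibroblast cells in the AP-1 differences was not tested.

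The mean of 21 early response genes outside AP-1 ran from 6.27 to 6.73 in WT and from 6.54 to 6.75 in KO hearts at P30, a difference of 0.199 (exact two-sided permutation p = 0.0303, n = 6 each, and 0.212 after adjustment over the 28 list means). The mean of 13 bZIP partners ran from 6.63 to 6.71 in WT and from 6.73 to 6.94 in KO hearts, a difference of 0.141 (exact permutation p = 0.00216, adjusted p = 0.0605). With the early response mean as a covariate over all arrays, the P30 difference of Jdp2 was 0.46 and that of Fosl2 0.20, while that of Atf3 fell to 0.01. Under this covariate and under the atrial one, 0 of the 8 genes other than Jdp2 passed by limma, as without a covariate. Over all 18819 genes 27 and 9 passed in these fits, against 192 without a covariate. Klf6 and Myc are among the 21 early response genes and are also among those closest to Jdp2 within groups, so the covariate holds some of the same variation.

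**Figure D3:**
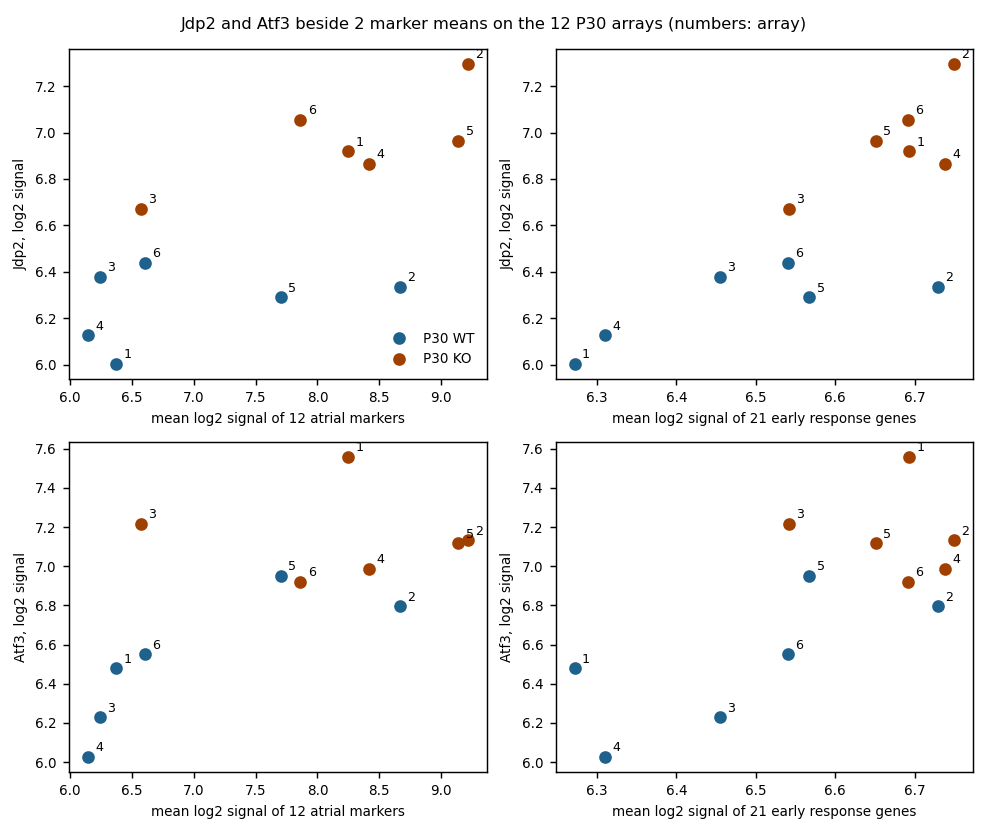
Log2 signal of Jdp2 (upper panels) and Atf3 (lower panels) on the 12 P30 arrays against the mean log2 signal of 12 atrial markers (left) and of 21 early response genes (right), with array numbers beside the points. The atrial means of the WT arrays, 6.14 to 8.67, and of the KO arrays, 6.57 to 9.22, overlapped, as did the early response means, 6.27 to 6.73 and 6.54 to 6.75.

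The change from newborn to P30 was much wider in the array as a whole. In WT hearts 4 of the 8 genes other than Jdp2 passed by limma, as did 47.0% of all genes (19.2% higher and 27.9% lower), so the share is close to the background. Fos rose by 1.10 (SE 0.30, adjusted p = 0.00361), Fosl2 by 0.79 (SE 0.14, adjusted p = 3.6e-05) and Junb by 0.47 (SE 0.08, adjusted p = 2.37e-05) on the log2 scale. Jun fell by 0.62 (SE 0.15, limma adjusted p = 0.00139). Fosb, Jund, Atf3 and Batf did not pass. Jdp2 was at -0.02 (SE 0.13), given without a test since the P30 WT arrays are a side of the difference for which it was listed.

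In KO hearts 3 of the 8 genes other than Jdp2 passed by limma, as did 59.0% of all genes (34.0% higher and 25.0% lower). Fosl2 rose by 1.08 (SE 0.14, adjusted p = 4.99e-07), Junb by 0.53 (SE 0.08, adjusted p = 4.74e-06) and Fosb by 0.49 (SE 0.13, adjusted p = 0.00302). The newborn KO mean of Fosb, 4.08, lay below the lowest array median, 4.24. Jdp2 was 0.56 higher at P30 (SE 0.13), given without a test since the comparison uses the same 6 P30 KO arrays by which Jdp2 came onto the list. Fos, at 0.47 (SE 0.30, limma adjusted p = 0.180), and Jun, at -0.27 (SE 0.15, adjusted p = 0.133), did not pass in KO hearts. Whether a gene passed in 1 genotype only is no test of a difference, which is given next. Without the newborn arrays 4 the counts among the 8 genes other than Jdp2 were again 4 in WT and 3 in KO hearts, with 45.3% and 56.3% of all genes.

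The difference between the genotype effects at the 2 ages was tested in the same model. By limma 0 of the 8 genes other than Jdp2 passed, where 0.0106% of all genes did, and at an unadjusted p under 0.05 the count was also 0 of 8, where 12.9% of all genes passed. The effect at P30 minus that in newborns was 0.58 for Jdp2 (SE 0.19, given without a test since it holds the P30 difference), 0.36 for Jun (SE 0.22, limma adjusted p = 0.496) and -0.63 for Fos (SE 0.43, adjusted p = 0.544). For Atf3 it was 0.25 (SE 0.43, limma adjusted p = 0.840), and -0.32 without the newborn arrays 4.

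The wider pathway was read from lists of named genes. Of 13 measured bZIP partners, 24 MAP kinases and upstream kinases, 9 factors and coactivators of the Fos promoter, 15 factors that end AP-1 induction, 15 genes with textbook AP-1 sites and 21 early response genes, 0 passed by limma in newborn hearts. Over all arrays the list medians there lay between -0.04 and 0.09. The newborn arrays 4 were left out for standing apart, so the next values are a description, with 2.56% of all genes past the threshold. Without them, Maff, a small Maf protein, was 0.80 higher (limma adjusted p = 0.00141), and the growth regulator Myc 1.02 higher (adjusted p = 0.000159) in newborn KO hearts. Dusp4, a MAP kinase phosphatase, was 1.09 higher (adjusted p = 0.0325), as was Cd44, a cell surface receptor, by 0.64 (adjusted p = 0.0149). Mapk11 and Map2k6, a p38 kinase and a kinase of p38, were lower, with log2 differences of -0.54 (adjusted p = 0.0242) and -0.43 (adjusted p = 0.0278). These were 1 of 13 bZIP partners, 1 of 21 early response genes, 1 of 15 factors that end induction, 1 of 15 genes with AP-1 sites and 2 of 24 kinases. The median over the early response genes was then 0.18.

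At P30, 4 genes of these lists passed, where 1.02% of all genes passed (0.670% higher, 0.351% lower). The orphan nuclear receptor Nr4a3, an early gene, was 1.47 higher on the log2 scale in KO hearts (SE 0.25, limma adjusted p = 0.00566), with means of 5.15 in WT and 6.61 in KO hearts. Its relative Nr4a2 was 0.53 higher (SE 0.12, adjusted p = 0.0371). Of the genes with AP-1 sites, Plaur, the urokinase receptor, was 0.48 higher (SE 0.10, limma adjusted p = 0.0174). Map3k1, a kinase upstream of Jun kinases, was lower (log2 difference -0.31, SE 0.08, adjusted p = 0.0465) and did not pass without the newborn arrays 4, where Maff (0.49, limma adjusted p = 0.0392) and Ccn1 (-0.52, adjusted p = 0.0196) did. The 2 early genes were 2 of 21 measured, Plaur 1 of 15 and Map3k1 1 of 24. The medians were 0.17 over the early response genes, 0.12 over bZIP partners, 0.06 over genes with AP-1 sites and between -0.04 and 0.01 over the other lists, against 0.03 over all genes.

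With age, genes of the lists passed in both directions, as 19.2% of all genes did as higher and 27.9% as lower in WT hearts. In WT hearts, 7 of 15 factors that end induction passed as higher and 6 as lower by limma, among them the phosphatase Dusp8 (1.43 higher, adjusted p = 1.14e-08) and the ubiquitin ligase Itch (log2 difference -0.51, adjusted p = 3.98e-07). Of the 24 kinases, 6 were higher and 7 lower, with Map2k3, a p38 kinase kinase, 0.93 higher (limma adjusted p = 1.76e-11). Of the 9 regulators of the Fos promoter 3 were higher, including Srf (0.33, adjusted p = 0.00252) and Stat3 (0.36, adjusted p = 2.33e-05), and 4 lower, including Creb1 (-0.35, adjusted p = 0.000208). The bZIP partners Nfe2l1 (0.51, limma adjusted p = 1.32e-08) and Mafk (0.64, adjusted p = 4.85e-05) were higher and Creb5 lower (-0.59, adjusted p = 0.000312), 2 and 1 of 13, or 4 and 1 without the newborn arrays 4. Of genes with AP-1 sites 3 were higher and 5 lower, the protease Mmp14 by -2.00 (limma adjusted p = 1.15e-09) and its inhibitor Timp1 by -1.65 (adjusted p = 3.66e-07). Of the early response genes 7 were higher and 4 lower, with Myc at -2.03 (limma adjusted p = 1.93e-08).

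In KO hearts, where 34.0% of all genes passed as higher and 25.0% as lower, the same lists gave 8 of 13 bZIP partners higher and 1 lower (6 and 1 without the newborn arrays 4), 7 of 24 kinases higher and 5 lower, and 3 of 9 regulators of the Fos promoter higher and 4 lower. Of factors that end induction 7 of 15 were higher and 5 lower, of genes with AP-1 sites 4 of 15 higher and 5 lower, and of early response genes 8 of 21 higher and 4 lower. Nr4a3 had the largest rise named, 2.61 on the log2 scale (SE 0.25, limma adjusted p = 5.75e-09). Zfp36l1, which promotes decay of early mRNAs, fell by 1.16 (SE 0.10, limma adjusted p = 4.43e-10).

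Within groups, several of the genes rose and fell together from heart to heart. Deviations from group means were correlated over the 24 arrays for all 36 pairs of the 9 genes, with permutation of arrays within groups and adjustment over the pairs. By Pearson's r 11 pairs passed, all positive, and by Spearman's rho 6 did. Fos and Junb were closest, at r = 0.762 and rho = 0.703 (permutation adjusted p = 0.00144 and 0.00954), and r = 0.679 without the 2 arrays farthest from the median of Fos. Jun and Jdp2 followed each other at r = 0.66 and rho = 0.695 (permutation adjusted p = 0.00909 and 0.00954), r = 0.518 without the farthest 2. Fosl2 and Jund gave r = 0.689 and rho = 0.645 (permutation adjusted p = 0.00909 and 0.0155), r = 0.585 without the farthest 2. Jdp2 and Fos, neighbours on the chromosome, gave r = 0.12.

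Fewer pairs passed without the newborn arrays 4. Without them 1 pair of 36 passed, Fos and Junb, at r = 0.742 and rho = 0.70 (permutation adjusted p = 0.00216 and 0.0295). Jun and Jdp2 then gave r = 0.524 (permutation adjusted p = 0.0944), Fosl2 and Jund 0.609 (adjusted p = 0.0869), and Fosl2 and Atf3 0.21 against 0.668 with them. Fos and Atf3 gave 0.595 without and 0.494 with them, and Jund and Jdp2 0.577 and 0.641. After each array was centred on its median, 11 pairs passed by Pearson's r.

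**Figure D4:**
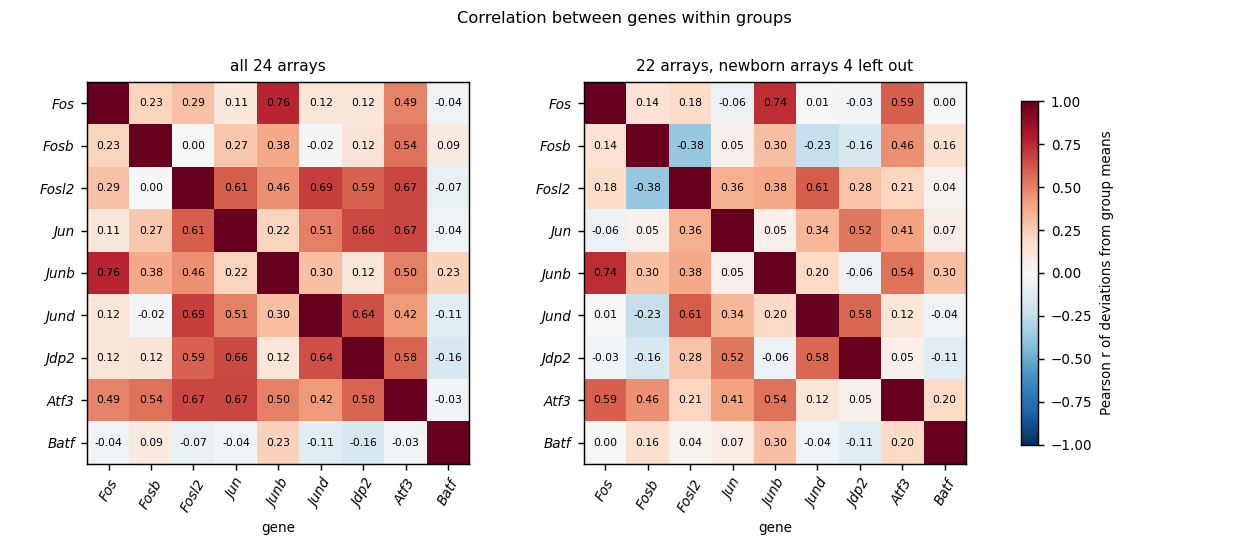
Pearson's r between the 9 genes (both axes) of deviations from group means, over all 24 arrays (left) and over 22 arrays without the newborn arrays 4 (right), coloured from -1 (blue) to 1 (red). The pair Fos and Junb kept its r (0.762 and 0.742), while Jdp2 and Atf3 went from 0.579 to 0.05.

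The genes whose signal over the 24 arrays was most like that of Jdp2 were Fam107a (r = 0.912), Rhobtb1, Vit, Irf2bp2 and Csrnp1 (r = 0.839), among all other genes. Fam107a had group means of 4.98, 5.43, 5.03 and 6.53 in newborn WT, newborn KO, P30 WT and P30 KO hearts, in the same order of groups as Jdp2 apart from the lowest 2. With group means removed the closest were Klf6 (r = 0.850), Klf9, Myc, Fmnl2 and Gem (r = 0.820). For Fos they were Six4 (r = 0.785), Usp16, Junb, Fam13a and Nudt18 over all arrays, and Tchp (r = 0.765), Junb, Fstl4, Olfr1469 and Ythdf1 with group means removed. These are descriptions over arrays that share groups and handling.

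Fos, Jdp2 and Batf are consecutive protein-coding genes on chromosome 12 in the GRCm38.p6 annotation, with 2 lncRNA genes between Fos and Jdp2 that are not among the genes measured. At P30 Jdp2 was 0.70 higher in KO hearts, while Fos was at -0.50 (limma adjusted p = 0.458) and Batf at 0.07 (adjusted p = 0.841). The next coding genes outwards also did not pass, with Tmed10 at 0.12 (limma adjusted p = 0.334), Nek9 at -0.04 (adjusted p = 0.801), Flvcr2 at -0.13 (adjusted p = 0.605) and Erg28 at 0.03 (adjusted p = 0.944).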

How the data were processed

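Ventricle RNA of 24 mouse hearts was hybridised to Affymetrix whole-transcript arrays. The authors deposited RMA values, which are log2 signals after background correction, quantile normalisation and summary of probes, and the submitters' processing notes name oligo 1.22, limma 3.14 and R 2.15. RMA makes the array distributions alike, so a shift of all genes would not be seen. The genome build was not given in the sources used here, nor was a batch or scan date.

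Rows were named through the platform annotation. Of 35017 rows, 21118 carried a single symbol, 1735 carried more and 12164 carried none. Entrez identifiers tied 21085 of the single-symbol rows to GRCm38.p6. Each of the 18819 genes was represented by its brightest row. limma 3.58.1 in R 4.3.3 was fitted to all 24 arrays with 1 mean per group, 20 residual degrees of freedom and Benjamini-Hochberg adjustment over all genes. Adjusted p-values in the text are from this fit unless another is named. Correlations used 100000 permutations (Python 3.11.15, numpy 2.4.6). With 6 arrays per group, precision is limited. The scripts were tested on simulated data.

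The alternatives were a filter at the 30th percentile of signal, centring on array medians, repeated quantile normalisation, robust eBayes with a trend, weights per array, replicate numbers fitted as a block, averaging the rows of a gene, fitting just the 12 arrays compared, dropping the newborn arrays numbered 4, 2 covariates (the atrial and the early response mean), a fold of at least 1.5, and dropping each array once.

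The 10 genes, the further gene lists and the tests were chosen with earlier results of these data known. From each further list, up to 3 called genes with the smallest adjusted p per comparison were named, and genes called without the newborn arrays 4 were named after their values were seen. For likeness the 5 highest r were taken, and for the locus 3 coding genes on each side of Jdp2. The targeted genes are not reported here, so the genotype of each array rests on its label.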

Additional observations from a re-analysis of the deposited data

Results flagged for a closer look

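Of 40 groups of 6 arrays checked for an array far from the rest, 1 stood out, where chance gives about 1 in 20. Fosl2 in newborn WT hearts was 7.33 on array 4 and 6.77 on the next highest, a gap of 0.67 of the whole range of the group, above Dixon's limit for 6 values. The same array also had the highest Fos, Fosb, Jun, Jund, Jdp2 and Atf3 of newborn WT hearts. Without it and the newborn KO array 4, the newborn Fosl2 difference, KO minus WT, was 0.34 against 0.15 with them. The cause was not tested.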

How the results depend on the processing

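The counts of genes called here include Jdp2 where it passed. They kept their value when any 1 array was left out (0 to 0 in newborn hearts, 1 to 1 at P30, 4 to 4 with age in WT and in KO hearts, 0 to 0 for the difference of effects). The 1 gene at P30 was Jdp2, and the KO count with age holds it too. Without Jdp2 they were 0 of 8 and 3 of 8 over all arrays. Since Jdp2 was listed for its P30 KO signal, nothing is read from its part in these counts. The counts moved by over 1.5 times in 6 cases. Without the newborn arrays 4 the count was 1 in newborn hearts and 3 at P30, or 2 at P30 without Jdp2. It was 0 at P30 with the atrial mean and 0 with the early response mean as a covariate, where 9 and 27 of all 18819 genes passed. With age in KO hearts the count was 7 with the early response covariate and 1 with a fold of at least 1.5, and in WT hearts 5 and 3. Over all genes the fold rule left 3235 in KO and 3567 in WT hearts. With the early response covariate the counts over all genes stayed within 1.5 times of 11110 in KO and 8854 in WT hearts. Nothing is read from these counts. Over all genes, the P30 count of 192 ran from 9 to 806, the highest without P30 KO array 3, and was 784 without P30 WT array 2. The newborn count of 0 was 482 without the newborn arrays 4, and the cause was not tested.

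Signs turned only for differences that did not pass. In newborn hearts Junb was 0.0226 with median centring, 0.0149 with a new quantile step, 0.0207 with array weights and 0.0371 without the newborn arrays 4. With the early response covariate Fos was -0.0795, Jun -0.1053 and Jdp2 -0.0037 there, and at P30 Junb was -0.0355 and Jund -0.066. Batf at P30 was -0.0101 with array weights. With age in WT hearts Jdp2 was 0.0469 with median centring, 0.1488 with the quantile step, 0.0527 with array weights and 0.0727 without the newborn arrays 4. Batf was 0.0425, 0.0824 and 0.0196 under the first 3 of these, and Atf3 0.0033 without the newborn arrays 4. For the difference of effects Junb was -0.0145 with median centring, and Atf3 -0.0127 with array weights, -0.3181 without the newborn arrays 4 and -0.0561 with the early response covariate. Leaving out 1 array gave ranges across 0 for newborn Fosb (-0.0153 to 0.1255), Jun (-0.0419 to 0.1873) and Junb (-0.0458 to 0.0465), for P30 Batf (-0.0094 to 0.1528), and with age in WT hearts for Jdp2 (-0.0703 to 0.0727), Atf3 (-0.493 to 0.0033) and Batf (-0.0955 to 0.0488). It did so too for Atf3 with age in KO hearts (-0.3148 to 0.0116) and for the difference of effects of Jund (-0.1497 to 0.001), Atf3 (-0.11 to 0.3864) and Batf (-0.1396 to 0.0226).

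Same-numbered arrays of different groups mostly did not deviate together. Of 24 pairs 8 had r over 0.1 (-0.438 to 0.645), and 6 arrays correlated best with their own number. The highest r was that of the P30 WT and KO arrays 2, and the lowest that of the newborn WT and KO arrays 4. With the replicate number as a block the counts of genes called, Jdp2 included, were 0, 1, 4, 4 and 0 in the 5 comparisons, in the order given above. The atrial covariate and the fits of 12 arrays gave no value for the difference of effects, which needs both ages.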
